A study of Homo sapiens with 12 samples.

Results

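TP53INP1, CCNG1 and TRIAP1 are 3 direct targets of the tumour suppressor p53 whose products act back on p53 signalling or on the death of stressed cells. They were taken by gene symbol from a table of 14118 named genes, each represented by the probe set with the highest mean signal. Each of the 3 symbols had a single probe set, so all 3 genes were measured and none was left out (TP53INP1 by probe set 17079317, CCNG1 by 16991839 and TRIAP1 by 16771303). Expression was read on 12 Affymetrix Human Gene 2.0 ST arrays of total RNA from HCT116, SW48 and RKO, established human colorectal cancer cell lines that the labels give as p53 wild type. Each line was left without treatment or received Nutlin-3a at 10 µM over 8 h, which gave 6 groups of 2 arrays; no group was given a vehicle control by the labels, and a treatment time is not stated for the untreated cells. Nutlin-3a is a small molecule that occupies the p53-binding pocket of MDM2, the ubiquitin ligase that normally marks p53 for degradation. The labels do not say whether the duplicates were separate cultures, so the p-values below measure the spread between these arrays, which may be technical. A higher value on an array may come from more cells carrying a transcript or from more RNA per cell, and these cannot be told apart here.

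p53 is held at a low level in unstressed cells and, once stabilized, switches on genes for cell cycle arrest, repair and apoptosis together with genes that tune p53 itself. TP53INP1 encodes a stress protein that works with the kinases HIPK2 and PKC delta, which phosphorylate p53 and favour its pro-apoptotic programme; it also binds LC3-family proteins in autophagy. CCNG1 encodes cyclin G1, an atypical cyclin that recruits the phosphatase PP2A to MDM2 and thereby helps to restrain p53. TRIAP1 encodes a small protein that limits formation of the apoptosome and, in the mitochondrial intermembrane space, carries phosphatidic acid with PRELI-family partners towards cardiolipin synthesis. The genes therefore stand for a positive loop, a negative loop and a survival arm of the same response.

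The stretches of DNA directly before CCNG1 and TRIAP1 are shown because both genes rose together with TP53INP1 in every line below. They come from RefSeq, build GRCh38.p14, where 2 of the 3 genes were matched; TP53INP1 had no entry. The CCNG1 stretch runs from the end of the neighbouring long noncoding RNA gene LOC105377700 to the base before the first CCNG1 start (chr5:163437323-163437570, plus strand, 248 bases), and capitals mark the motif CCAAT on either strand.
CCNG1: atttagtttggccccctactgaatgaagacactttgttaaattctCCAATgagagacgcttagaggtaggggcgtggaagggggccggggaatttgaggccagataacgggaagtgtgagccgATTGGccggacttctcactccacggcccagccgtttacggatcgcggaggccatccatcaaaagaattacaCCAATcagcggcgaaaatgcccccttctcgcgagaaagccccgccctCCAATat
TRIAP1 lies head to head with GATC, a gene of the mitochondrial glutamine-tRNA amidotransferase, and the whole interval between the genes is 59 bases long (chr12:120446385-120446443, read on the minus strand towards TRIAP1). Capitals mark its 11 CG pairs.
TRIAP1: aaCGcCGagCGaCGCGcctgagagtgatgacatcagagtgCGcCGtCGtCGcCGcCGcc

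Both strands of the 250 bases before the start were searched in 27305 genes with a RefSeq promoter, 1 promoter per gene. CCAAT occurred 4 times before CCNG1 and 0 times before TRIAP1; 33.0% of promoters held any copy and 0.930% held at least 4. In the CCNG1 stretch the copies ended 199, 121, 50 and 3 bases before the start, the second of them on the opposite strand. The GC box, searched as GGGCGG, occurred 1 time before each gene and was held by 42.3% of promoters; the copy before CCNG1, on the opposite strand, overlapped none of the marked copies. The TATA box, searched as TATAAA and held by 11.1% of promoters, was not found in either window. TGACGTCA, held by 1.765% of promoters, was not found there. Nor was the p53 half-site in its consensus form, held by 5.53% of promoters, which says only that these letters are not in those 250 bases. CG pairs numbered 16 in the window of 250 bases before CCNG1, and 40.8% of promoters held at least that many. For TRIAP1 there were 28 in its window. The share of promoters with at least 28 was not taken, and the 93.6% that held at least 1 do not say whether 28 is usual.

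Over all probe sets, duplicates had r of 0.996 to 0.997 and arrays from different lines 0.957 to 0.965; the median log2 gap of duplicates over genes was 0.080 to 0.090. The labels mention thyroid tissue in the extraction text and HCT116 alone in the growth text. Of 9 thyroid markers 5 were measured, at log2 means between 4.54 and 6.22 in each line; no level of one probe set can be set against that of another. The colorectal markers EPCAM and CDX2 stood at 11.02 and 7.41 in HCT116, at 11.10 and 9.57 in SW48, and at 5.94 and 7.47 in RKO. All 9 measured colorectal markers ran from 3.78 to 11.02 in HCT116, from 4.47 to 11.10 in SW48 and from 3.81 to 7.47 in RKO. EPCAM encodes an epithelial adhesion protein and CDX2 a colon transcription factor. Of the 9 measured colorectal markers, 4 were highest in HCT116, 5 in SW48 and 0 in RKO, and 3 were lowest in HCT116, 1 in SW48 and 5 in RKO. The macrophage-associated gene CD68 was higher in RKO (10.55) than in HCT116 (8.65) and SW48 (8.65) and, like the other 3 measured immune markers, did not pass limma for a response to Nutlin-3a in any line. The list as a whole did not follow CD68: among the 4 measured immune markers, 2 were highest in RKO and 2 were lowest there. Of the immune markers 2 in HCT116, 1 in SW48 and 0 in RKO had an unadjusted limma p under 0.05. The 5 thyroid markers and 3 endothelial markers had 0 in each line at that level. The 3 measured fibroblast markers had 1, 1 and 2 in HCT116, SW48 and RKO, and the 9 colorectal markers 0, 1 and 0. Over all genes 19.6% passed that level in HCT116, 16.2% in SW48 and 16.9% in RKO. Of the fibroblast markers THY1 was called lower in HCT116 (-0.32) and of the colorectal markers LGR5 in SW48 (-0.63, lost without SW48 Nutlin-3a replicate 2). The THY1 call was lost without any 1 of the 4 HCT116 arrays. It was also lost with a trended robust prior, with all probe sets tested and with the line fitted alone.

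**Figure D1:**
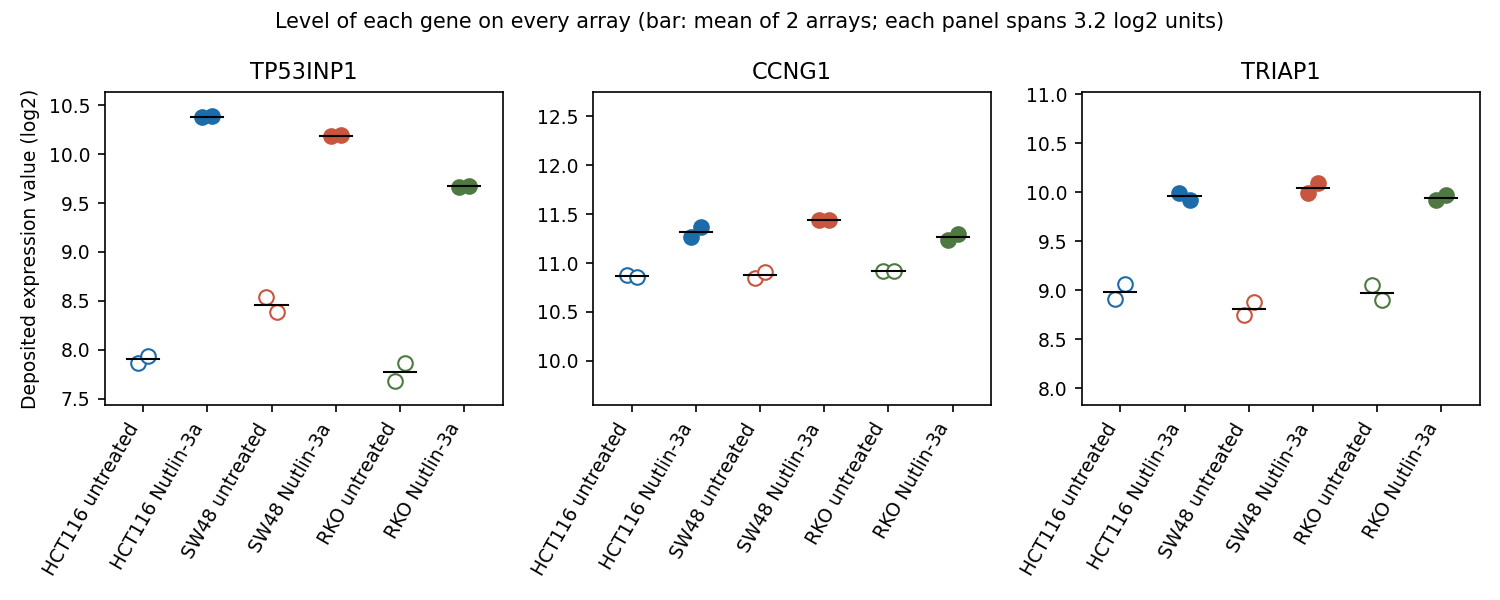
Deposited log2 value of each gene on all 12 arrays; open circles are untreated and filled circles Nutlin-3a arrays, bars are means of 2 arrays, and each panel spans the same number of log2 units. Treated arrays lie above untreated arrays of the same line in every panel, with the largest mean difference for TP53INP1 in HCT116 (2.48) and the smallest for CCNG1 in RKO (0.34).

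TP53INP1 had the largest response of the 3 genes in every line. In HCT116 its log2 level was 7.87 and 7.93 on the untreated arrays and 10.38 on both Nutlin-3a arrays, a rise of 5.58-fold (log2 fold change 2.48 ± 0.077, SE; limma adjusted p = 4.75e-07). The gap between the highest untreated and the lowest treated array, 2.45, was far wider than the gap between duplicates, at most 0.064 there. In SW48 the untreated arrays read 8.54 and 8.38 and the treated ones 10.18 and 10.19, a rise of 3.31-fold (log2 fold change 1.73 ± 0.077; limma adjusted p = 5.16e-06). In RKO the untreated arrays read 7.68 and 7.87 and both treated arrays 9.67, a rise of 3.72-fold (log2 fold change 1.89 ± 0.077; limma adjusted p = 5.42e-06). Groups did not overlap in any line. The gene ranked 2, 4 and 2 from the top of 14118 genes by fold change in HCT116, SW48 and RKO.

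Untreated SW48 cells already carried more TP53INP1 transcript than the other lines. The untreated means were 8.46 ± 0.11 in SW48, 7.90 ± 0.045 in HCT116 and 7.78 ± 0.13 in RKO (SD, n = 2 each). SW48 exceeded HCT116 by 0.56 ± 0.077 (limma adjusted p = 0.000164; 44.9% of genes called) and RKO lay below SW48 by a log2 difference of -0.69 ± 0.077 (limma adjusted p = 3.87e-05; 44.7% called). RKO and HCT116, neighbours in this order, did not pass the test (difference -0.13, 95% interval -0.30 to 0.045; limma adjusted p = 0.23; 41.5% called). Differences of this kind between lines were common: 58.1% of all genes passed the F test of equal untreated means, and TP53INP1 was the member of the 3 that did (limma adjusted p = 5.29e-05). A batch that followed the cell line and the line itself cannot be told apart.

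After Nutlin-3a the order of the lines was different. HCT116 stood at 10.38 ± 0.0010, SW48 at 10.19 ± 0.0075 and RKO at 9.67 ± 0.0048 (SD, n = 2 each). RKO lay below HCT116 by a log2 difference of -0.71 ± 0.077 (limma adjusted p = 3.65e-05; 42.4% of genes called) and below SW48 by -0.52 ± 0.077 (limma adjusted p = 0.0003; 44.6% called). SW48 and HCT116 differed by -0.19, with a 95% interval from -0.37 to -0.022, and did not pass after adjustment (limma adjusted p = 0.0633; 46.8% called); this pair passed with each array centred on its median (limma adjusted p = 0.0333), with the trended robust prior (0.024), with dim genes removed (0.0283) and without either untreated RKO array (0.0429). The F test of equal treated means was passed by 59.5% of all genes and by TP53INP1 (limma adjusted p = 5.08e-05).

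The size of the TP53INP1 response differed between lines in the F test of equal responses (limma adjusted p = 0.0376), which only 0.503% of genes passed. The response in SW48 was smaller than in HCT116 by a log2 difference of -0.76 (95% interval -0.999 to -0.51; limma adjusted p = 0.0285), with 0.212% of genes called in that comparison. The response in RKO was below that in HCT116 by -0.59 (interval -0.83 to -0.34; limma adjusted p = 0.0804; 0.248% of genes called), and RKO and SW48 differed by 0.17 (interval -0.074 to 0.41; limma adjusted p = 0.618; 0.361% called). The F call rested on the full set of arrays: without any 1 of 11 of the 12 arrays it was lost (limma adjusted p up to 0.138), the exception being RKO untreated replicate 1. Without 10 of the 12 arrays, each in turn, the SW48 and HCT116 difference lost its call as well (limma adjusted p up to 0.137), while its size stayed between -0.84 and -0.68.

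**Figure D2:**
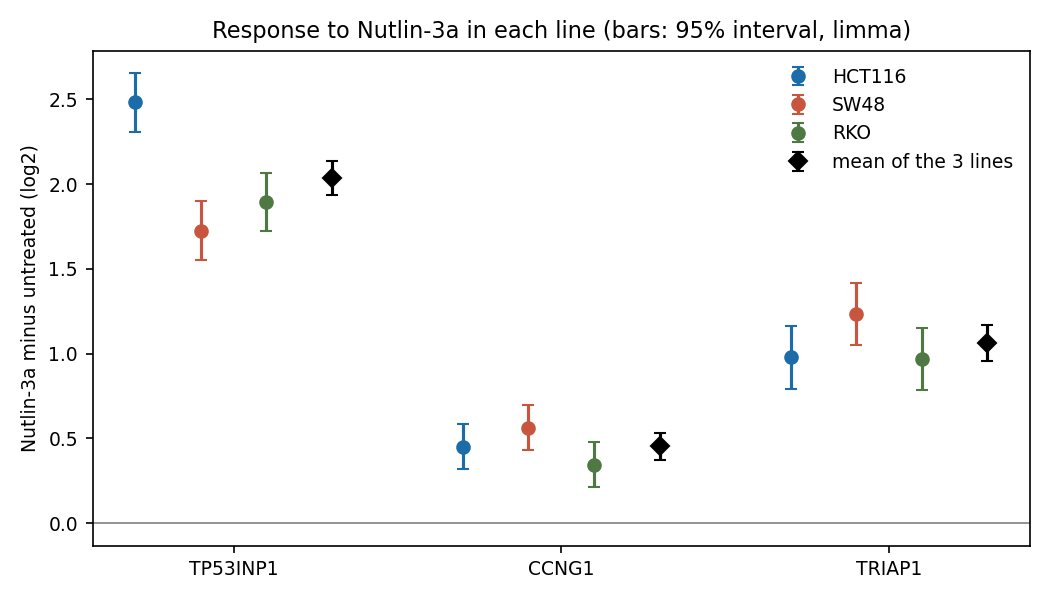
Log2 difference between Nutlin-3a and untreated cells for each gene in each line and averaged over the lines (diamonds); bars are 95% intervals from limma. All intervals lie above 0; the HCT116 interval of TP53INP1 (2.31 to 2.65) lies above those of SW48 and RKO, while the intervals of CCNG1 and of TRIAP1 overlap between lines.

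CCNG1 gave the smallest rise of the 3 genes, from untreated means that lay within 0.054 of each other. In HCT116 the untreated arrays read 10.88 and 10.85 on the log2 scale and the Nutlin-3a arrays 11.27 and 11.37, a rise of 1.37-fold (log2 fold change 0.45 ± 0.059, SE; limma adjusted p = 0.00218). In SW48 the levels were 10.85 and 10.91 before and 11.44 and 11.43 after treatment, a rise of 1.48-fold (log2 fold change 0.56 ± 0.059; limma adjusted p = 0.000657). In RKO they were 10.92 on both untreated arrays and 11.24 and 11.29 on the treated ones, a rise of 1.27-fold (log2 fold change 0.34 ± 0.059; limma adjusted p = 0.0218). Treated and untreated arrays did not overlap in any line, and the narrowest gap between them was 0.31, in RKO. The RKO call was lost without any 1 of the 4 RKO arrays (limma adjusted p up to 0.113), with log2 fold changes from 0.32 to 0.37. The HCT116 and RKO calls were also lost when each line was fitted alone (limma adjusted p = 0.0553 and 0.203). By fold change CCNG1 ranked 260, 94 and 306 from the top in HCT116, SW48 and RKO.

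The untreated CCNG1 means were 10.87 ± 0.019 in HCT116, 10.88 ± 0.041 in SW48 and 10.92 ± 0.0044 in RKO (SD, n = 2 each). No neighbours in this order were separated by the tests; the F test gave limma adjusted p = 0.709, and the widest pair, RKO minus HCT116, had a 95% interval from -0.079 to 0.19. The treated means ran from 11.26 ± 0.040 in RKO through 11.32 ± 0.071 in HCT116 to 11.44 ± 0.0066 in SW48. Treated RKO lay below treated SW48 by a log2 difference of -0.18 ± 0.059 (limma adjusted p = 0.0348; 44.6% of genes were called in that comparison), a call lost with each array centred on its median (limma adjusted p = 0.0919), with all probe sets tested (0.0784) and without any 1 of the 4 treated arrays of these lines (up to 0.155). SW48 minus HCT116 was 0.12 (limma adjusted p = 0.122) and passed with quantile normalization (0.21; limma adjusted p = 0.0139) and, at the same size, with the trended robust prior (0.0213). The F test of equal treated means did not pass (limma adjusted p = 0.0633) but did with quantile normalization (0.0146), with a trended robust prior (0.00385) and with dim genes removed (0.0211).

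The CCNG1 response itself was not shown to differ between lines (F test, limma adjusted p = 0.402). SW48 exceeded HCT116 by 0.11 (95% interval -0.077 to 0.30), and RKO differed from HCT116 by -0.11 (interval -0.30 to 0.080) and from SW48 by -0.22 (interval -0.41 to -0.031, limma adjusted p = 0.403). The last interval leaves out 0, but it is not adjusted for the number of genes tested.

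TRIAP1 rose in every line, by folds between 1.96 and 2.35. In HCT116 the log2 level went from 8.91 and 9.06 on the untreated arrays to 10.00 and 9.92 on the Nutlin-3a arrays, a rise of 1.97-fold (log2 fold change 0.98 ± 0.083, SE; limma adjusted p = 0.000149). In SW48 it went from 8.75 and 8.87 to 9.99 and 10.10, a rise of 2.35-fold (log2 fold change 1.23 ± 0.083; limma adjusted p = 4.49e-05). In RKO it went from 9.05 and 8.90 to 9.92 and 9.97, a rise of 1.96-fold (log2 fold change 0.97 ± 0.083; limma adjusted p = 0.00028). The groups did not overlap, and the gaps between them, 0.87 in HCT116, 1.12 in SW48 and 0.86 in RKO, exceeded the widest gap between duplicates, 0.16. TRIAP1 ranked 36, 15 and 25 from the top by fold change in HCT116, SW48 and RKO.

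Untreated TRIAP1 means were 8.98 ± 0.11 in HCT116, 8.97 ± 0.11 in RKO and 8.81 ± 0.088 in SW48 (SD, n = 2 each), and no pair of lines passed the test. The SW48 minus HCT116 difference of -0.17 had a 95% interval from -0.35 to 0.015 (limma adjusted p = 0.129). Treated means were 10.05 ± 0.073 in SW48, 9.96 ± 0.052 in HCT116 and 9.94 ± 0.037 in RKO, again with no pair called; the F test gave limma adjusted p = 0.503, and the widest pair, RKO minus SW48, had an interval from -0.29 to 0.081. The F test of equal responses did not pass either (limma adjusted p = 0.406). The response in SW48 exceeded that in HCT116 by 0.26 (interval -0.0064 to 0.52), and RKO and HCT116 differed by -0.0099 (interval -0.27 to 0.25). The response in RKO lay below that in SW48 by -0.26 (interval -0.53 to -0.0035, limma adjusted p = 0.46). That interval leaves out 0, but it is not adjusted for the number of genes tested.

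The 3 genes were called higher in each of the 3 lines, against 3.08% of all genes in HCT116, 1.38% in SW48 and 1.23% in RKO (5.11%, 3.12% and 2.02% in either direction), and 0.545% of genes, 77 in all, were called higher in every line. Both Nutlin-3a arrays lay above both untreated arrays of the same line in all lines for each member, as for 3.23% of genes (23.9% in HCT116, 19.3% in SW48 and 20.6% in RKO taken alone). The genes were chosen with earlier results of these data known, so these comparisons with all genes describe them and are no separate result. Averaged over lines, TP53INP1 rose by 2.03 ± 0.044, TRIAP1 by 1.06 ± 0.048 and CCNG1 by 0.45 ± 0.034 on the log2 scale (SE; limma adjusted p = 1.61e-08, 8.36e-07 and 3.40e-05; 4.33% of genes were called higher and 10.8% in either direction). An exact two-sided permutation of the treatment labels within each line, with 216 arrangements, gave p = 0.00926 for each gene, the smallest value that this design allows. Any gene without overlap in all lines gets this value, so it restates the non-overlap and is no separate result. Among the 77 shared genes the order by mean response was 2 for TP53INP1, 19 for TRIAP1 and 63 for CCNG1. The lines ordered the members in 1 way, TP53INP1 above TRIAP1 above CCNG1, but the members did not order the lines in 1 way: HCT116 gave the largest response for TP53INP1 and SW48 for both others, where the tests of the difference between lines did not pass.

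**Figure D3:**
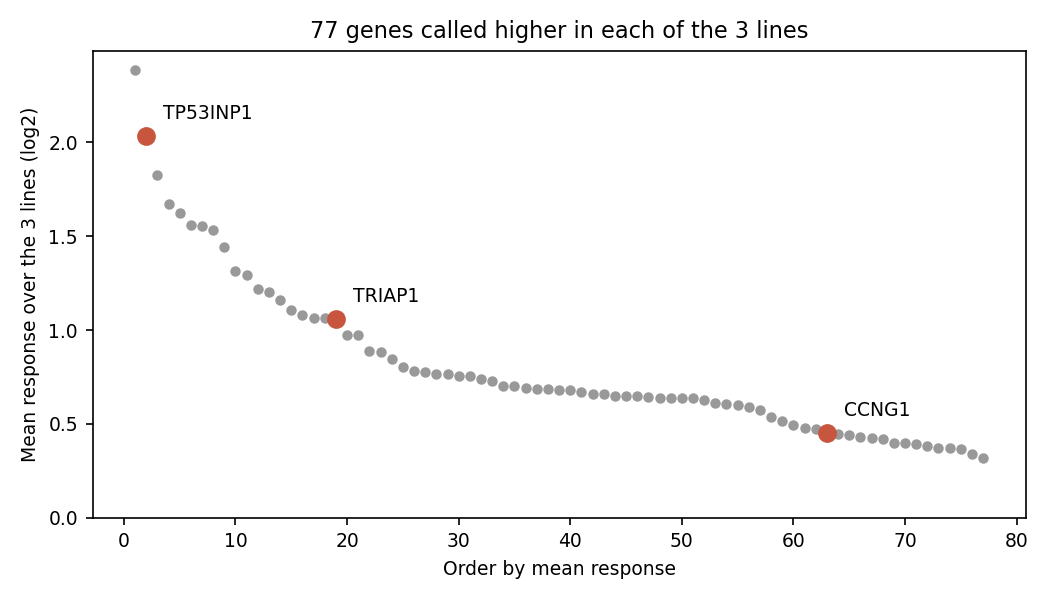
Mean log2 response over the lines of the 77 genes called higher in HCT116, SW48 and RKO, in descending order; red points are the members. TP53INP1 (2.03) lies near the top of the curve, TRIAP1 (1.06) in its upper part and CCNG1 (0.45) in its flat lower part.

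As a description of pattern, the levels of the members were compared over the 12 arrays, which come in pairs of duplicates from 3 lines and share the treatment, so the points are not independent. CCNG1 and TRIAP1 correlated at r = 0.97, TP53INP1 and CCNG1 at 0.94, and TP53INP1 and TRIAP1 at 0.93. Among the 6592 other genes whose group means spanned at least 0.5, the ones most like TP53INP1 were DRAM1 (r = 0.98), a p53-induced gene of lysosomes and autophagy, BBC3 (0.97), which encodes the pro-apoptotic protein PUMA, CMBL (0.96), the helicase gene ASCC3 (0.95) and ZNF337 (0.95). For CCNG1 they were ASCC3 (0.99), DRAM1 (0.98), TRIAP1 (0.97), ZNF337 (0.97) and FBXO22 (0.95), which encodes a ubiquitin ligase subunit. For TRIAP1 they were ASCC3 (0.98), the iron-sulfur cluster scaffold gene ISCU (0.98), the ephrin gene EFNB1 (0.97), CCNG1 (0.97) and FBXO22 (0.96). ASCC3 and FBXO22 thus appear beside both CCNG1 and TRIAP1, and ASCC3 beside all 3.

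Likeness was also measured on the responses alone, as the Euclidean distance between the 3 log2 fold changes. The nearest gene to TRIAP1 was RRM2B (distance 0.15), the p53-inducible ribonucleotide reductase subunit, followed by EFNB1 (0.23), DRAM1 (0.34), the fructose bisphosphatase gene TIGAR (0.37) and ZNF79 (0.37). CCNG1 had NOPCHAP1 (0.058), C2orf66 (0.099), PHPT1 (0.12), NDUFAF8 (0.12) and AMZ2 (0.12) beside it. TP53INP1, near the edge of the distribution, had no close gene: the nearest were the MIR3189 locus (0.75), SESN1 (0.75), DNAI3 (0.77), TP53I3 (0.86) and ACER2 (0.95). These genes were picked for their likeness to members that rose in every line, so their own calls are no separate result. C2orf66 was called in no line, and NDUFAF8 missed the threshold in RKO (limma adjusted p = 0.0958). The RKO calls of NOPCHAP1 and PHPT1, like that of CCNG1, were lost without any 1 of the 4 RKO arrays, that of AMZ2 without 11 of the 12 arrays, each in turn, and that of ZNF337 without 3 of the 4 RKO arrays. AMZ2 lost its HCT116 call without any 1 of the 4 HCT116 arrays. The SW48 calls of AMZ2 and NDUFAF8 were each lost without 3 of the 4 SW48 arrays, each in turn.

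Of 12 further negative regulators of p53, 8 were measured and 0 passed limma in HCT116, SW48 or RKO; at an unadjusted p under 0.05 there were 3 in HCT116, 1 in SW48 and 0 in RKO. Over all genes 5.11%, 3.12% and 2.02% were called in either direction in these lines and 19.6%, 16.2% and 16.9% had an unadjusted p under 0.05, so a list of 8 genes with 0 calls lies near the share of all genes. MDM4, the relative of MDM2 that masks the p53 activation domain and is named here for that role, read 0.30 ± 0.081 in HCT116 (limma adjusted p = 0.0708), 0.12 in SW48 and 0.049 in RKO. WSB1 passed for the mean over lines (0.16 ± 0.041; limma adjusted p = 0.0368), a call lost in 12 of 20 alternatives. MDM2 and PPM1D are not analysed here. The median over the 8 genes was 0.092, 0.11 and 0.046 in HCT116, SW48 and RKO, where the median over all genes was -0.011, -0.013 and -0.0068.

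Of 13 positive regulators of p53, 9 were measured. In HCT116, SW48 and RKO, 1, 0 and 1 of them were called, beside 5.11%, 3.12% and 2.02% of all genes. At an unadjusted limma p under 0.05 there were 1, 3 and 3, beside 19.6%, 16.2% and 16.9% of all genes. For the mean over lines 1 was called higher and 1 lower, where 10.8% of all genes were called in either direction. PML, the scaffold of the nuclear bodies in which TP53INP1, HIPK2 and p53 meet, rose in HCT116 (0.67 ± 0.068; limma adjusted p = 0.000422) and in RKO (0.48 ± 0.068; limma adjusted p = 0.00727), and stood at 0.28 ± 0.068 in SW48 (limma adjusted p = 0.0576). The RKO call was lost without RKO untreated replicate 2 or Nutlin-3a replicate 2 (limma adjusted p up to 0.156 over all alternatives). HIPK2, named here for its tie to TP53INP1, read 0.070, -0.078 and -0.064 in HCT116, SW48 and RKO and did not pass, and the other 7 genes did not pass in any line; DYRK2 was called lower for the mean over lines (-0.16 ± 0.041; limma adjusted p = 0.032), a call lost in 13 of 20 alternatives. The only measured member of the p53 family, TP73, fell in HCT116 (-0.47 ± 0.073; limma adjusted p = 0.00563) and SW48 (-0.58 ± 0.073; limma adjusted p = 0.0024) and stood at -0.17 ± 0.073 in RKO (limma adjusted p = 0.267), with no difference between lines shown by the F test (limma adjusted p = 0.201). The HCT116 call of TP73 was lost without HCT116 untreated replicate 2 (limma adjusted p = 0.0515), and the SW48 call with that line fitted alone (0.0561).

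Among 13 partners and relatives of cyclin G1, 4 were measured. The PP2A subunits are not analysed here. In HCT116, SW48 and RKO, 1, 0 and 1 of the 4 were called, beside 5.11%, 3.12% and 2.02% of all genes. An unadjusted limma p under 0.05 was reached by 1, 0 and 1, beside 19.6%, 16.2% and 16.9% of all genes. CCNG2, the paralogue of CCNG1, rose in HCT116 (0.63 ± 0.058; limma adjusted p = 0.000236) and RKO (0.87 ± 0.058; limma adjusted p = 7.79e-05) and stood at 0.088 ± 0.058 in SW48 (limma adjusted p = 0.517). Its response differed between lines (F test, limma adjusted p = 0.0102), a call lost without SW48 untreated replicate 1 or SW48 Nutlin-3a replicate 2. CCNG1 rose by 0.45, 0.56 and 0.34 on the log2 scale in HCT116, SW48 and RKO. Before treatment the log2 mean of CCNG2 was 7.62 in SW48, above 6.03 in HCT116 and 6.47 in RKO. The other 3 measured genes did not pass in any line.

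Among 13 partners of TRIAP1 and genes of the cardiolipin route, 6 were measured. In HCT116, SW48 and RKO, 1, 0 and 1 of the 6 were called, beside 5.11%, 3.12% and 2.02% of all genes. An unadjusted limma p under 0.05 was reached by 2 in each line, beside 19.6%, 16.2% and 16.9% of all genes. APAF1, the core of the apoptosome whose assembly TRIAP1 limits, rose in HCT116 (1.19 ± 0.069; limma adjusted p = 1.46e-05) and RKO (0.77 ± 0.069; limma adjusted p = 0.000365), whereas in SW48 it read 0.028 ± 0.069 (limma adjusted p = 0.894). The difference between lines passed the F test (limma adjusted p = 0.00629). The RKO call was lost with that line fitted alone (limma adjusted p = 0.0591). The TRIAP1 log2 fold changes in HCT116, RKO and SW48 were 0.98, 0.97 and 1.23. The PRELI-family genes PRELID2 and PRELID3A had mean responses of -0.23 ± 0.073 and -0.11 ± 0.058 and did not pass in any line, nor did the other 3 measured genes.

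Of 15 relatives of TP53INP1 and autophagy genes, 14 were measured and 0 passed limma in HCT116, SW48 or RKO; at an unadjusted p under 0.05 there were 2 in HCT116, 0 in SW48 and 3 in RKO, beside 19.6%, 16.2% and 16.9% of all genes, and a count of 0 calls among 14 lies near the share of all genes as well. The list leaves out DRAM1, named above for autophagy and counted below with the other p53 targets. DRAM1 was called higher in HCT116 (1.14), SW48 (1.02) and RKO (0.76). TP53INP2, the paralogue of TP53INP1, read 0.030, -0.054 and 0.20 in HCT116, SW48 and RKO. The LC3-family gene GABARAPL1 read 0.41 ± 0.11 in HCT116 (limma adjusted p = 0.0604) and 0.43 ± 0.11 in RKO (limma adjusted p = 0.0783), and passed for the mean over lines (0.30 ± 0.063; limma adjusted p = 0.0152). GABARAPL2 passed for the mean as well (0.11 ± 0.030; limma adjusted p = 0.0495), a call lost in 17 of 20 alternatives. Of 38 other p53 targets 26 were measured, and 23 rose in HCT116, 22 in SW48 and 20 in RKO, with 0 falls. Over all genes 3.08%, 1.38% and 1.23% were called higher, and 5.11%, 3.12% and 2.02% in either direction. The median log2 fold changes of these targets were 1.07, 0.97 and 0.70. This list was chosen with earlier results of these data known, so its counts and medians are a description and no separate result. TP53INP1 exceeded the median of these targets in every line, and CCNG1 lay below it in every line.

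**Figure D4:**
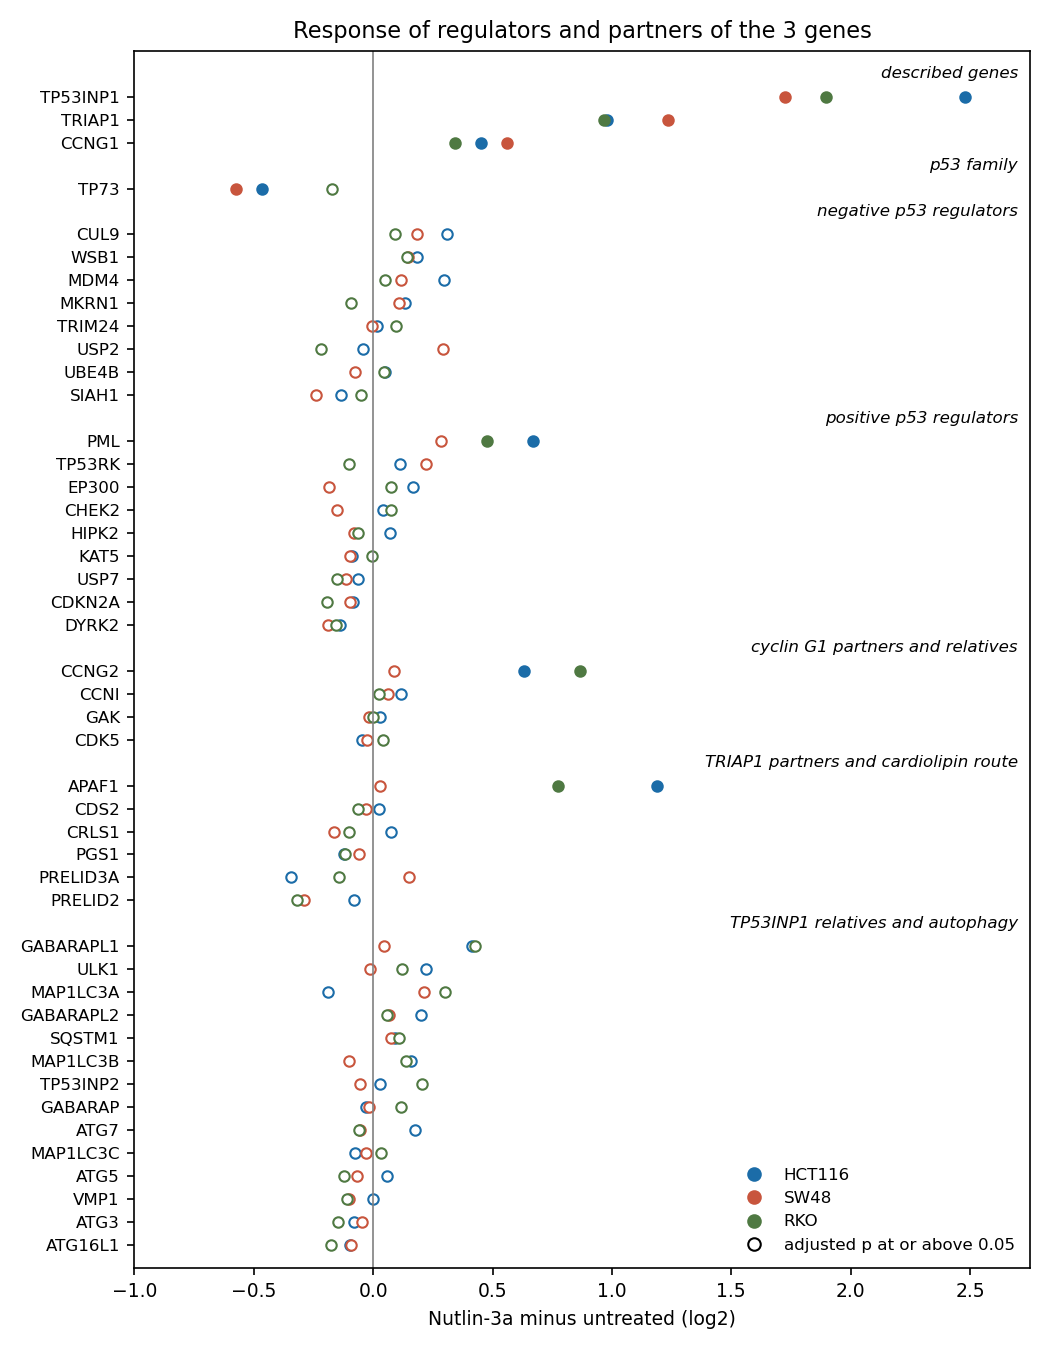
Log2 response to Nutlin-3a of the members and of the measured regulators and partners; colours are cell lines, filled circles passed limma at an adjusted p under 0.05 and open circles did not. Outside the members, filled circles are seen for TP73, PML, CCNG2 and APAF1, and those of CCNG2 and APAF1 are from HCT116 and RKO only.

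CCNE2, which encodes a cyclin that drives entry into DNA replication and is the nearest measured gene to TP53INP1 on one side, at 29.3 kb in GRCh38.p14, changed in the opposite direction: its log2 level fell in HCT116 from 9.35 and 9.38 to 8.43 and 8.66 (-0.82 ± 0.079; limma adjusted p = 0.000311). It fell in SW48 (-0.94 ± 0.079; limma adjusted p = 0.000136) and in RKO (-0.39 ± 0.079; limma adjusted p = 0.0404), where the call was lost without 10 of the 12 arrays, each in turn (up to 0.195 over all alternatives tried). NDUFAF6, whose RefSeq span overlaps TP53INP1, is not analysed here. NUDCD2 overlaps CCNG1 and read -0.018, -0.33 and -0.14 in HCT116, SW48 and RKO, and the hyaluronan receptor gene HMMR, 3.0 kb beyond, read -0.029, -0.088 and 0.14; neither passed in any line. Which stretch of overlapping genes each probe set covers is not given in the sources used here.

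GATC, which shares the 59-base interval shown above with TRIAP1, is not analysed here. On the other side of TRIAP1 the cytochrome oxidase gene COX6A1, at 3.2 kb, read 0.14, 0.16 and -0.17 in HCT116, SW48 and RKO and did not pass. The nearest measured gene beyond GATC was the long noncoding RNA gene NRAV, at 44 kb, which rose with TRIAP1 in HCT116 (0.45 ± 0.064; limma adjusted p = 0.00329), SW48 (0.38 ± 0.064; limma adjusted p = 0.0106) and RKO (0.31 ± 0.064; limma adjusted p = 0.0437). The SW48 call was lost without any 1 of the 4 SW48 arrays (limma adjusted p up to 0.087 over all alternatives), and the RKO call without any 1 of the 12 arrays (up to 0.225). The mean over lines, 0.38 ± 0.037, kept its call under each of the 20 alternatives (limma adjusted p up to 0.00369).

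**Figure D5:**
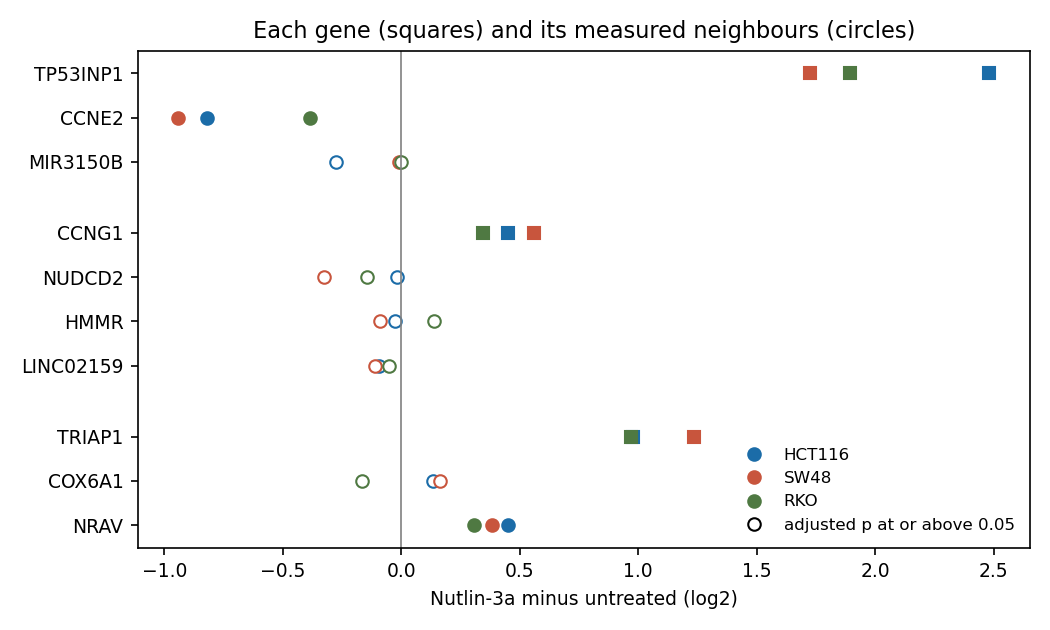
Log2 response to Nutlin-3a of each member (squares) and of its overlapping or nearest measured neighbours (circles); filled circles passed limma at an adjusted p under 0.05. CCNE2 lies below 0 in all lines beside TP53INP1, NRAV lies between 0.31 and 0.45 beside TRIAP1, and the neighbours of CCNG1 are all open.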

How the data were processed

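The authors deposited a log2 value for each probe set on each array; these run from 2.22 to 13.45, and the log base was taken from this range. The submitters' processing notes name GCOS; its version and the normalization: not given in the sources used here. Of 37270 probe sets, 14530 carried 1 symbol in the platform annotation, 0 several and 22740 none, which left 14118 genes, each by its probe set with the highest mean. limma 3.58.1 in R 4.3.3 fitted 6 group means to all 12 arrays (6 residual and 3.71 prior degrees of freedom), with Benjamini-Hochberg adjustment over all genes and a call at an adjusted p under 0.05. The test of the HCT116 response was tried on simulated data with independent noise and changes planted in treated HCT116 only. The tests between lines were not tried in this way. The number of arrays limits the precision.

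The genes and lists were chosen with earlier results of these data known. Of each list at most 6 genes are named, those called in a line first by mean response and then those tied to a member; for likeness, the 5 nearest genes are named. Motifs were searched in RefSeq promoters of GRCh38.p14. Alternatives were quantile normalization, median centring, a trended robust prior, each line fitted alone, all probe sets, a filter on low signal, the mean of a gene's probe sets, a stricter threshold, replicate blocks and leaving out each array.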

Additional observations from a re-analysis of the deposited data

Results flagged for a closer look

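The response of TP53INP1 to Nutlin-3a differed between HCT116, SW48 and RKO by the F test of equal responses over all genes (limma adjusted p = 0.0376). The log2 responses were 2.48, 1.73 and 1.89. The difference was tested as such; its dependence on single arrays is given with the result.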

How the results depend on the processing

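The responses of TP53INP1 and TRIAP1 in each line, of CCNG1 in SW48, and of all 3 genes averaged over lines kept direction and call under each alternative tried. CCNG1 in HCT116 (0.45) lost its call with the line fitted alone (limma adjusted p = 0.0553). CCNG1 in RKO (0.34) lost it with the line alone (0.203), with all probe sets (0.0553), at the threshold of 0.01 and without an RKO array (0.32 to 0.37). The F statistic of unequal TP53INP1 responses, 26.5, missed the 0.01 threshold and was 18.3 with quantile normalization (limma adjusted p = 0.0692) and 23.1 with all probe sets (0.0732), and ran from 16.9 to 35.8 without single arrays. The TP53INP1 response in SW48 minus that in HCT116 became -0.64 with quantile normalization (0.0607), stayed -0.76 with all probe sets (0.0612), missed the 0.01 threshold and ran from -0.84 to -0.68 without single arrays. That in RKO minus HCT116, -0.59, passed with the trended robust prior (0.00627) and with the low-signal filter (0.0268). The F statistic of unequal treated CCNG1 levels was 8.52 with quantile normalization, 9.59 with the trended prior and 6.14 with the filter. Differences near 0 changed sign: the TRIAP1 response in RKO minus HCT116 became 0.057 with quantile normalization and reached 0.016 to 0.068 in the runs without a single array that turned it, with a span of -0.088 to 0.068 over all alternatives. Untreated TRIAP1 in RKO minus HCT116 became 0.032 with median centring and ran from -0.086 to 0.070 without single arrays, treated TRIAP1 from -0.055 to 0.019, treated CCNG1 in RKO minus HCT116 0.0025 with quantile normalization, and untreated CCNG1 in SW48 minus HCT116 from -0.018 to 0.040 without single arrays. The cause was not tested.

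Counts of called genes moved more. HCT116 had 721, and 1228 with the trended prior, 1226 with the filter, 208 with the line alone, 274 at 0.01 and 260 to 692 without single arrays. SW48 had 441, and 870, 858, 115, 188 and 188 to 394 in the same order. RKO had 285, and 760, 742, 31, 84 and 97 to 226. The mean over lines had 1520, and 639 at 0.01. Unequal responses had 71, and 288 with the trended prior, 194 with the filter, 12 at 0.01 and 15 to 39 without single arrays. With all probe sets, 37270 features were tested in place of 14118 genes. There the count of unequal untreated levels went from 8197 to 13836 and that of unequal treated levels from 8399 to 14738. The filter left 7059 genes to test. Counts from these alternatives rest on different numbers of tests, so they do not compare directly with the main counts. The share of calls that were higher was 60.3% in HCT116, 44.2% in SW48 and 60.7% in RKO. It was 72.3%, 36.2% and 51.2% with median centring, 55.8%, 34.6% and 40.9% with the trended prior, 54.6%, 30.9% and 37.5% with the filter, and 72.1%, 65.2% and 100% with each line alone.

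Taken over all genes, same-numbered arrays of a line did not deviate together (correlations 0.055, -0.039 and -0.055 in HCT116, SW48 and RKO). A single correlation per line cannot show whether some genes were shifted together, so whether the numbers mark pairs was not settled. With the replicate number as a block within each line, calls numbered 357 in HCT116, 218 in SW48, 87 in RKO, 960 for the mean and 1 for unequal responses; as a block over all lines, 188 in RKO and 31 for unequal responses. The TP53INP1 F statistic was 25.6 (limma adjusted p = 0.201) and 23.8 (0.0762) with these blocks, its SW48 minus HCT116 difference -0.76 (0.168 and 0.0601), and CCNG1 in RKO 0.34 with the block within lines (0.11). The blocks changed no other call of the 3 genes' responses. The block within lines also ended the F calls of APAF1 (0.122) and CCNG2, the RKO calls of PML, CCNE2, NRAV, NOPCHAP1, PHPT1 and AMZ2, the SW48 calls of NRAV, NDUFAF8 and AMZ2, the HCT116 calls of THY1 and AMZ2, and the mean calls of WSB1, DYRK2 and GABARAPL2.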
